A study of Saccharomyces cerevisiae with 16 samples.

Results

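Expression of 31 Saccharomyces cerevisiae genes of ergosterol synthesis, sterol esterification and sterol gene regulation was followed on Affymetrix Yeast Genome 2.0 arrays in a Taf4 anchor-away strain. The genes were taken as a fixed list of symbols, each matched by 1 probe set, and form 31 of the 5449 S. cerevisiae genes named on the array. All 31 were among the 4359 genes kept after the dimmest 20% were left out. Probe sets were to be selected on the highest mean log2 signal, which decided nothing with 1 probe set per gene, and the symbols were chosen with the falls of ECM22, ARE1 and other members on rapamycin already known. For this reason the changes of single members and of pathway steps are given as descriptions, and a count of members that passed the test on all genes supports nothing about the list.

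Anchor-away moves a nuclear protein out of the nucleus: the target carries an FRB tag, an abundant ribosomal protein carries FKBP12 repeats, and rapamycin joins them, so that the target leaves with ribosomal subunits. Taf4 is a subunit of TFIID, the general factor that brings TBP to promoters. Every sample came from parental strain W303 in exponential growth. All were MATalpha and carried tor1-1, which makes growth resistant to rapamycin, and fpr1::NAT, which removes the cell's own FKBP12. The anchor was RPL13A-2xFKB12::TRP1 and the tagged target TAF4-FRB::HYGRO. The 4 Taf4-labelled groups, of 2 arrays each, were steady-state RNA and newly synthesized RNA from cells given the solvent DMSO or rapamycin for 30 min. Newly synthesized RNA had been marked with 5 mM 4-thiouracil for 6 min and purified through biotin. Rapamycin is given as 1 µg/mL in the protocol and as 5 µM in the design text. As a spike-in, thiouracil-treated S. pombe cells had been added at 1 part to 3 parts of S. cerevisiae cells. No strain without the FRB tag was given rapamycin, so the drug and the loss of Taf4 from the nucleus cannot be told apart. In such bulk samples fewer cells and less RNA per cell cannot be told apart either.

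The labels list 8 further samples as a Taf5 anchor-away strain, although their stated genotype is also TAF4-FRB::HYGRO. Of these 8 columns, 6 held the values of a Taf4-labelled column divided by 5, within 0.01 signal units, and each of the 6 carried the opposite fraction label. The series thus holds 10 distinct arrays, and for the copied ones the labels do not settle which fraction was hybridised. The fraction names below are those of the Taf4-labelled columns. The MATalpha pheromone gene MF(ALPHA)1 read between 12.65 and 13.63 on the log2 scale on the 8 arrays, and the 4 MATa genes MFA1, MFA2, STE2 and BAR1 were all left out by the filter on dim genes. TAF4 mRNA itself changed by -1.35 (SE 0.22) in newly synthesized and -1.50 (SE 0.22) in steady-state RNA, and the tag acts on the protein, so this does not check the depletion. TAF5 mRNA changed by -0.65 (SE 0.22) and -1.40 (SE 0.22), and RPL13A mRNA, which carries the anchor, by -0.98 (SE 0.22) and 0.00 (SE 0.22), in the same order. The labels do not say that replicates came from separate cultures, and the spread between 2 arrays per group limits the precision of every value.

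Ergosterol is the main sterol of fungal membranes. Its synthesis runs from acetyl-CoA through mevalonate to farnesyl diphosphate, then through squalene to lanosterol, and ends in a series of oxygen-dependent demethylations, reductions and desaturations in the endoplasmic reticulum. The zinc cluster factors Upc2 and Ecm22 activate many of the synthesis genes when sterol is short, and Sut1 is a related factor tied to sterol uptake under low oxygen. Surplus sterol is esterified by the acyltransferases Are1 and Are2 and stored in lipid droplets.

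With rapamycin, sterol genes as a whole moved about as far as the rest of the transcriptome, but their steps did not move alike. In newly synthesized RNA 23 of the 31 genes (74.2%) fell and 0 rose, where 79.4% of all genes tested fell and 1.79% rose. The limma count of members higher at an unadjusted p under 0.05 was also 0. In steady-state RNA 27 of 31 (87.1%) fell and 1 rose, beside 86.8% and 1.42% of all genes. The median log2 change of the sterol genes was -0.72, a 1.65-fold decrease, in newly synthesized RNA, and -0.78, or 1.72-fold, over all genes. In steady-state RNA the medians were -1.18 and -1.17. Values are log2 signals after the S. pombe medians of the arrays had been made equal, and a change is rapamycin minus DMSO with its standard error from limma. The changes of single members were spread somewhat wider than those of all genes, with an SD over genes of 0.58 against 0.44 in newly synthesized and 0.70 against 0.59 in steady-state RNA.

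**Figure D1:**
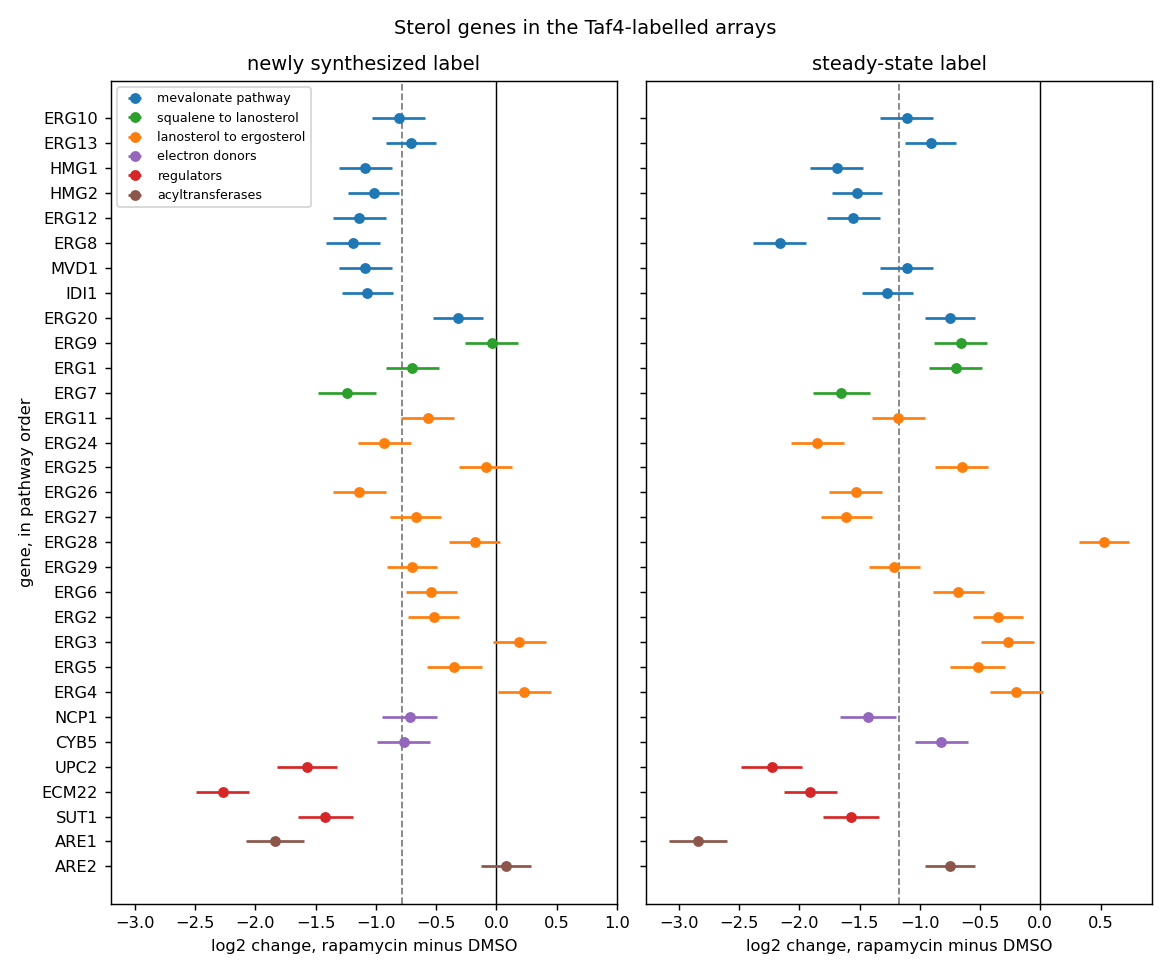
Log2 change, rapamycin minus DMSO, of the 31 sterol genes in newly synthesized (left) and steady-state (right) RNA, from 2 arrays per group. Points are limma estimates, bars are 1 standard error, colours are pathway steps, the dashed line is the median of all 4359 genes and the solid line is 0. The 3 regulators and ARE1 lie to the left of the dashed line in both panels, and ERG3 and ERG4 lie near 0. In the steady-state panel SUT1 (-1.57) lies nearer the line (-1.17) than ERG8 (-2.16) and ERG24 (-1.85), which are not regulators.

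The transcriptional regulators had the lowest median change of the steps in both fractions, except that the electron donors were lower in steady-state RNA under the loess scaling through the S. pombe probe sets (-0.34 against -0.27 relative to all genes). All 3 regulators fell in both fractions, where 79.4% of all genes fell in newly synthesized and 86.8% in steady-state RNA. The median change of the regulators was -1.57 and -1.91 in that order, which was 0.79 and 0.74 below the median of all genes. ECM22 (YLR228C, chromosome XII, 600019 to 602463 in the R64 assembly) read 7.31 and 7.61 with DMSO and 5.05 and 5.33 with rapamycin in newly synthesized RNA. Both rapamycin arrays lay far below both DMSO arrays. Its change of -2.27 (SE 0.22), a 4.82-fold fall, was undercut by 1 other gene of the 4359. These rapamycin signals were near background: MFA1, a gene of the other mating type, read 5.25 and 5.03 on the same arrays, above ECM22 on the first, so the fold and rank have no firm floor. On the other 7 arrays all members read above the 4 MATa genes. In steady-state RNA ECM22 read 8.44 and 8.84 with DMSO and 6.57 and 6.89 with rapamycin, a change of -1.91 (SE 0.22), or 3.77-fold. These groups did not overlap either.

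UPC2 (YDR213W, chromosome IV, 889751 to 892492), the paralog of ECM22, read 6.74 and 7.43 with DMSO and 5.32 and 5.71 with rapamycin in newly synthesized RNA. It read 9.23 and 9.75 with DMSO and 6.99 and 7.53 with rapamycin in steady-state RNA. The groups were apart in both fractions, although replicates of UPC2 differed more than those of ECM22. The changes were -1.57 (SE 0.25), 2.97-fold, and -2.23 (SE 0.25), 4.69-fold, with 71 and 63 genes lower. In newly synthesized RNA its first rapamycin signal lay just above that of MFA1, which read 5.25 there and 5.03 on the second array. The fold and rank of UPC2 in that fraction thus have no firm floor either. SUT1 (YGL162W, chromosome VII, 198138 to 199037) read 7.69 and 7.93 with DMSO and 6.36 and 6.42 with rapamycin in newly synthesized RNA. Its steady-state signals were 9.50 and 9.81 with DMSO and 7.79 and 8.38 with rapamycin. SUT1 thus fell in both fractions without overlap, by 2.67-fold (log2 change -1.42, SE 0.23) and 2.97-fold (-1.57, SE 0.23).

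**Figure D2:**
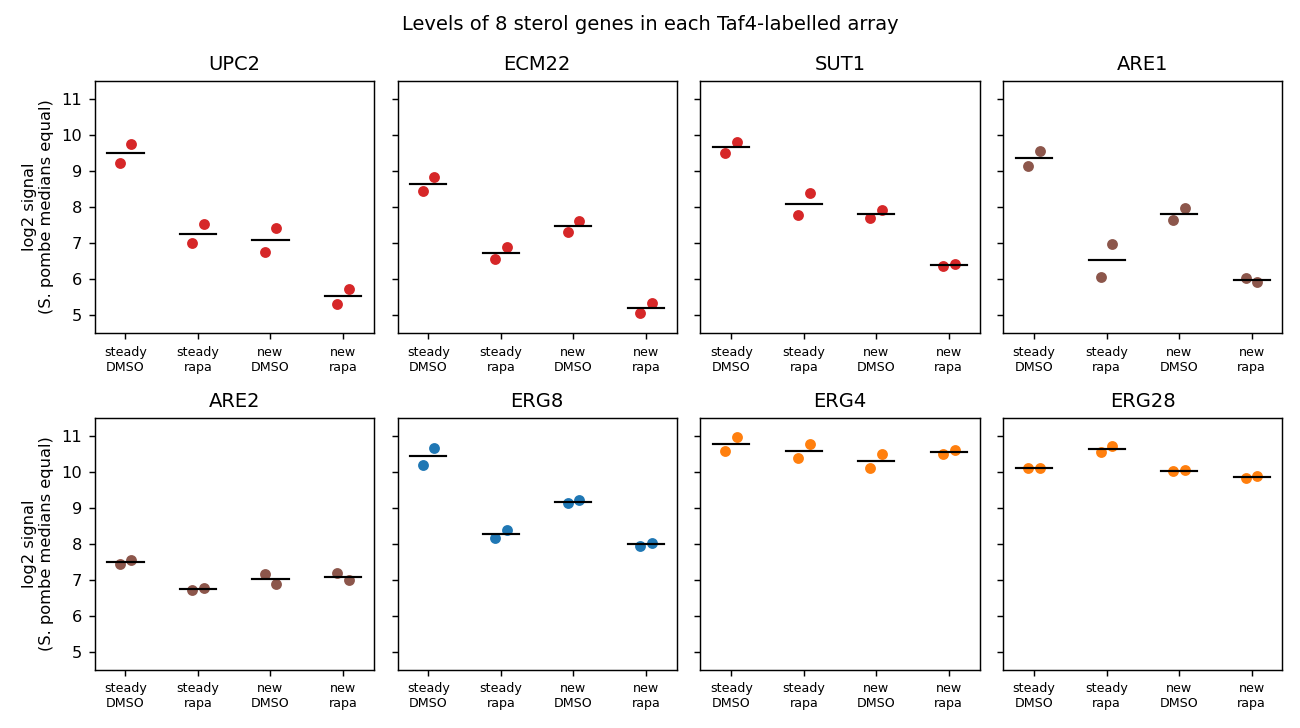
Log2 signal (S. pombe medians equal) of 8 sterol genes on each of the 8 Taf4-labelled arrays; points are arrays, bars are means of 2. In UPC2, ECM22, SUT1, ARE1 and ERG8 the rapamycin arrays lie below the DMSO arrays of the same fraction, in ERG4 the groups overlap in both fractions, and in ERG28 the steady-state rapamycin arrays, at 10.55 and 10.71, lie above both DMSO arrays.

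The sterol acyltransferases, which both make steryl esters, differed from each other. ARE1 (YCR048W, chromosome III, 211929 to 213761) read 7.65 and 7.98 with DMSO and 6.03 and 5.92 with rapamycin in newly synthesized RNA. In steady-state RNA it read 9.15 and 9.57 with DMSO and 6.07 and 6.96 with rapamycin. Its groups were apart in both fractions, although the steady-state rapamycin arrays differed by nearly a whole log2 unit. The ARE1 changes were -1.84 (SE 0.24), 3.57-fold, with 9 genes lower, and -2.84 (SE 0.24), 7.18-fold, with 0 of the 4359 genes lower. ARE1 was dim with rapamycin: MFA1 read 5.25 and 5.03 on the newly synthesized arrays and 5.25 on the first steady-state one. Relative to all genes, the steady-state median of the 2 acyltransferases was -0.62, and -0.18 under the loess scaling. The size and rank of the ARE1 falls are thus uncertain.

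ARE2 (YNR019W, chromosome XIV, 665339 to 667267), the isoenzyme that accounts for most esterification in aerobic cells, read 7.15 and 6.87 with DMSO and 7.18 and 6.99 with rapamycin in newly synthesized RNA. These arrays overlapped, and the change of 0.08 (SE 0.21) did not pass the test. In steady-state RNA ARE2 read 7.45 and 7.55 with DMSO and 6.72 and 6.77 with rapamycin, without overlap, a 1.68-fold fall (-0.75, SE 0.21). The log2 ratio of ARE1 to ARE2 signal within an array went from 0.50 and 1.11 with DMSO to -1.15 and -1.07 with rapamycin in newly synthesized RNA. In steady-state RNA it went from 1.69 and 2.02 to -0.65 and 0.19. The change of this ratio, 3.76-fold and 4.26-fold, does not depend on a constant scaling between arrays, and an exact permutation test of 2 arrays against 2 gave p = 0.333, the smallest it allows. Signals of different probe sets are not on 1 scale, so only the change of a ratio is read, and cross-hybridisation between paralogs was not tested.

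The same within-array ratio moved differently for the other paralog pairs. ECM22 over UPC2 went from 0.57 and 0.17 to -0.27 and -0.38 in newly synthesized RNA, a change of -0.70. In steady-state RNA it went from -0.79 and -0.91 to -0.43 and -0.64, a change of 0.32, and both exact permutation tests gave the smallest possible p of 0.333. For HMG1 over HMG2, the isoenzymes of HMG-CoA reductase, the change was -0.06 and -0.17 (exact permutation p = 0.667 in each fraction).

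Of the 9 genes of the mevalonate pathway, which makes farnesyl diphosphate, 8 fell in newly synthesized and 9 in steady-state RNA, where 79.4% and 86.8% of all genes fell. Their medians of -1.07 and -1.27 lay 0.29 and 0.10 below the median of all genes. ERG8 (YMR220W, chromosome XIII, 712316 to 713671), phosphomevalonate kinase, read 9.12 and 9.22 with DMSO and 7.95 and 8.01 with rapamycin in newly synthesized RNA. In steady-state RNA ERG8 read 10.20 and 10.67 with DMSO and 8.17 and 8.37 with rapamycin. The arrays of each pair of groups were well apart. ERG8 had the lowest change of the pathway in both fractions, -1.19 (SE 0.22), 2.29-fold, and -2.16 (SE 0.22), 4.48-fold, the latter with 84 genes lower.

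HMG-CoA reductase is the main control point of the pathway. HMG1 read 8.43 and 8.64 with DMSO and 7.39 and 7.50 with rapamycin in newly synthesized RNA, and 9.70 and 10.30 against 8.22 and 8.39 in steady-state RNA. HMG2 read 8.13 and 8.28 with DMSO and 7.17 and 7.19 with rapamycin in newly synthesized RNA, and 9.11 and 9.39 against 7.68 and 7.78 in steady-state RNA. Neither gene's groups overlapped. HMG1 fell by 2.12-fold and 3.23-fold and HMG2 by 2.03-fold and 2.87-fold in newly synthesized and steady-state RNA.

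The other mevalonate genes ran from ERG12 to ERG20, at -1.14 to -0.32 in newly synthesized and -1.55 to -0.75 in steady-state RNA. Log2 changes in newly synthesized and steady-state RNA were -0.81 and -1.11 for ERG10, acetoacetyl-CoA thiolase, and -0.71 and -0.91 for ERG13, HMG-CoA synthase. They were -1.14 and -1.55 for ERG12, mevalonate kinase, -1.09 and -1.11 for MVD1, the diphosphate decarboxylase, and -1.07 and -1.27 for IDI1, the isopentenyl diphosphate isomerase. ERG20, farnesyl diphosphate synthase at the end of the pathway, was the member that did not pass the test in newly synthesized RNA (-0.32, SE 0.21), and it fell in steady-state RNA (-0.75, SE 0.21).

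Between farnesyl diphosphate and lanosterol, 2 of 3 genes fell in newly synthesized RNA and 3 of 3 in steady-state RNA, beside 79.4% and 86.8% of all genes. ERG9, squalene synthase, read 9.36 and 9.49 with DMSO and 9.37 and 9.41 with rapamycin in newly synthesized RNA. These arrays overlapped, and the change of -0.04 (SE 0.22) did not pass the test. In steady-state RNA ERG9 read 10.39 and 10.73 with DMSO and 9.78 and 10.02 with rapamycin, a fall of 1.58-fold. ERG1, squalene epoxidase and the target of terbinafine, changed by -0.70 in each fraction (SE 0.22). ERG7, lanosterol synthase, fell by 2.37-fold (-1.24, SE 0.24) and 3.14-fold (-1.65, SE 0.24).

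The 12 genes from lanosterol to ergosterol had the highest median change of the steps in newly synthesized RNA. In steady-state RNA they and the squalene to lanosterol genes (-0.67 and -0.70) had no settled order: without the first rapamycin array the latter were higher (0.43 against 0.40 above all genes). In newly synthesized RNA 7 of 12 (58.3%) fell and 0 rose, beside 79.4% and 1.79% of all genes. The median of -0.53 was 0.25 above that of all genes. In steady-state RNA 8 of 12 (66.7%) fell and 1 rose, beside 86.8% and 1.42% of all genes. The median of -0.67 was 0.51 above that of all genes but just below it (-0.04) under the loess scaling. The 5 genes that did not pass in newly synthesized RNA were ERG25, ERG28, ERG3, ERG5 and ERG4. Among these 12 genes the changes reached from -1.14 (ERG26) to 0.23 (ERG4) in newly synthesized RNA and from -1.85 (ERG24) to 0.53 (ERG28) in steady-state RNA.

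The early steps of this stretch remove the methyl groups of lanosterol. ERG11, the lanosterol demethylase that azole drugs block, changed by -0.57 and -1.18 (SE 0.22 each), and ERG24, a sterol reductase, by -0.93 and -1.85 (SE 0.22 each). The methyl groups on the first ring are removed by a complex that Erg28 tethers to the membrane. Its dehydrogenase ERG26 changed by -1.14 and -1.53, and its keto reductase ERG27 by -0.67 and -1.61. ERG25, the methyl oxidase of that complex, gave -0.09 (SE 0.22), which did not pass, and fell by 1.57-fold in steady-state RNA (-0.65, SE 0.22). ERG29, an endoplasmic reticulum protein needed for ergosterol synthesis, changed by -0.70 and -1.21.

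ERG28 (YER044C, chromosome V, 237570 to 238016), the scaffold, differed in direction from its partners only in steady-state RNA. It read 10.02 and 10.04 with DMSO and 9.82 and 9.87 with rapamycin in newly synthesized RNA, a small difference (-0.18, SE 0.21) that did not pass the test. In steady-state RNA it read 10.10 and 10.10 with DMSO and 10.55 and 10.71 with rapamycin. It was the member that rose, by 1.44-fold (0.53, SE 0.21), and 47 genes of the 4359 were higher. The rise did not pass without the second steady-state rapamycin array (0.45, adjusted p = 0.0601 by limma), and ERG28 gave -0.27 under the loess scaling.

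The final steps reshape the sterol nucleus and side chain. ERG4 (YGL012W, chromosome VII, 472855 to 474276), the reductase of the last step, read 10.11 and 10.49 with DMSO and 10.48 and 10.59 with rapamycin in newly synthesized RNA. In steady-state RNA ERG4 read 10.58 and 10.96 with DMSO and 10.37 and 10.76 with rapamycin. The groups overlapped in both fractions, and neither 0.23 (SE 0.22) nor -0.20 (SE 0.22) passed the test.

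ERG3, a sterol desaturase, read 10.09 and 10.26 with DMSO and 10.32 and 10.41 with rapamycin in newly synthesized RNA. In steady-state RNA it read 10.98 and 11.34 with DMSO and 10.71 and 11.08 with rapamycin. The rapamycin arrays were slightly higher, without overlap, in the first case and overlapped in the second, and neither 0.19 (SE 0.22) nor -0.27 (SE 0.22) passed. ERG2, the sterol isomerase, read 12.04 and 12.26 with DMSO and 11.56 and 11.71 with rapamycin in newly synthesized RNA, and fell there by 1.43-fold (-0.52, SE 0.21). Its steady-state signals were 11.85 and 11.97 with DMSO and 11.66 and 11.45 with rapamycin, apart but with a change (-0.35, SE 0.21) that did not pass. ERG6, the sterol methyltransferase, changed by -0.54 and -0.68 (SE 0.21 each). ERG5, the cytochrome P450 desaturase, gave -0.35 (SE 0.23), which did not pass, and -0.52 (SE 0.23), which did.

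The electron donors of the P450 and oxidase steps both fell in both fractions, where 79.4% and 86.8% of all genes fell. NCP1, the P450 reductase, changed by -0.72 and -1.43 (SE 0.23 each), and CYB5, cytochrome b5, by -0.77 and -0.82 (SE 0.22 each). Their medians lay 0.03 and 0.05 above the median of all genes, and the steady-state value turned to -0.34 under the loess scaling and -0.01 with the dimmest 40% left out.

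**Figure D3:**
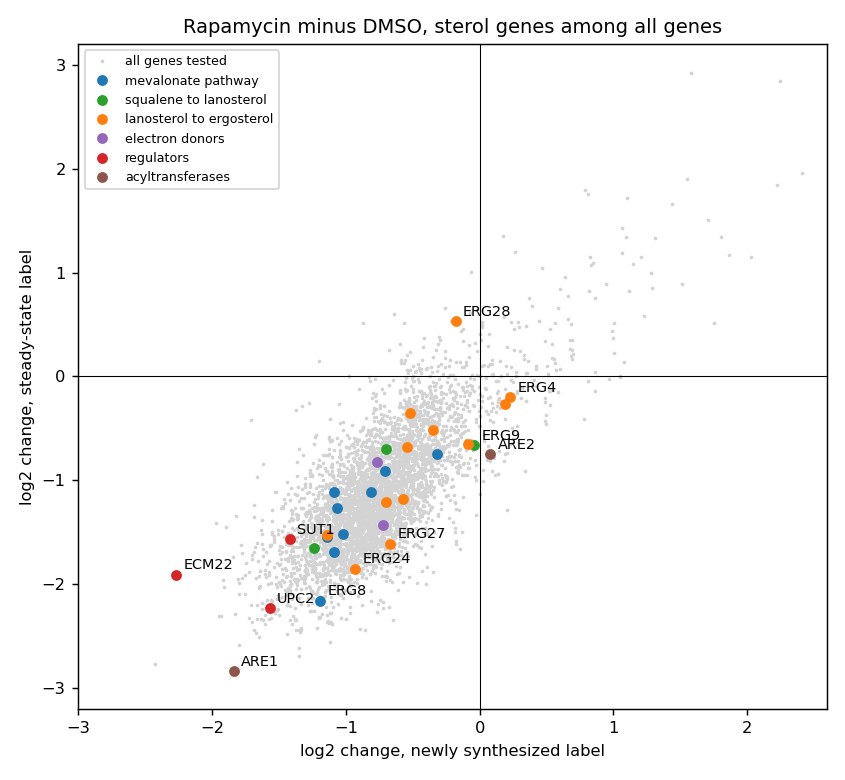
Log2 change, rapamycin minus DMSO, in newly synthesized (x axis) against steady-state RNA (y axis); grey points are all 4359 genes, coloured points the 31 sterol genes by step, from 2 arrays per group. ECM22, ARE1 and UPC2 lie at the lower left edge of the grey points, and ERG28 lies above 0 on the y axis.

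Several of these calls rested on single arrays. In newly synthesized RNA ERG2 and ERG6 did not pass without any 1 of the 4 arrays of that fraction, with changes of -0.63 to -0.41 and -0.59 to -0.49. ERG11 did not pass without the second DMSO array (-0.42) or either rapamycin array (-0.51 and -0.63). Without the second DMSO array or the first rapamycin array, ERG1 gave -0.64 and -0.65, ERG27 -0.64 and -0.62, and NCP1 -0.61 and -0.64, none of which passed. ERG10 did not pass without the first rapamycin array (-0.54). In steady-state RNA the calls of ERG9 (-0.49), ERG25 (-0.41) and ERG5 (-0.37) were lost without the second DMSO array, and that of ERG5 also without the first rapamycin array (-0.33). The calls of ECM22, UPC2, SUT1, ARE1 and ERG8 were kept without any 1 array in both fractions. So were those of ERG13, HMG1, HMG2, ERG12, MVD1, IDI1, ERG7, ERG24, ERG26, ERG29 and CYB5.

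The direction of many of these changes depends on the spike-in scaling. With the S. cerevisiae medians made equal instead, the median of all genes moved to 0.05 in newly synthesized and 0.09 in steady-state RNA. In newly synthesized RNA 5 sterol genes were then lower and 8 higher, beside 389 and 679 of the 4359 genes. In steady-state RNA 7 were lower and 12 higher, beside 787 and 1393 of the 4359. The 5 lower in newly synthesized RNA were ERG8, UPC2, ECM22, SUT1 and ARE1. Dim genes tended to have lower changes than bright ones: Spearman's rho across genes between mean signal and change was 0.60 and 0.64 over the 31 sterol genes, and 0.32 and 0.36 over the 4359 genes, in newly synthesized and steady-state RNA. The genes share their arrays and are not independent, and the part of signal strength in the differences between steps was not tested.

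The change in newly synthesized RNA was set against that in steady-state RNA by the interaction term of the same fit. None of the 31 sterol genes passed (0 lower, 0 higher), where 0.138% and 1.19% of all genes did. At an unadjusted p under 0.05 in limma, 1 sterol gene was lower and 7 were higher. With no count over all genes to set beside them, these are not read as a trait of the sterol genes. The extremes were ERG28, whose newly synthesized change was lower by 0.71 (-0.71, adjusted p = 0.138), and ARE1, whose change was higher by 1.01 (adjusted p = 0.0923). The result for ARE1 turned on single arrays: it passed in limma without the first steady-state DMSO array (1.22, adjusted p = 0.0461) or the second steady-state rapamycin array (1.45, adjusted p = 0.00923). Without either of these arrays more genes passed as higher, both among the sterol genes and over all genes. The median difference over all genes was then 0.56 and 0.55, in that order, against 0.39 with all arrays. Under the loess scaling 18 sterol genes passed as higher, beside 2120 of all 4359 genes. The members' median difference was 0.43, beside 0.39 over all genes. Genes called in 1 fraction and not in the other, such as ARE2 and ERG9, were not shown to differ between the fractions in this fit. The count of 0 depends on the setting: with a replicate block 1 sterol gene passed as lower and 7 as higher, beside 38 and 1004 of all genes.

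Newly synthesized signal was set against steady-state signal under each condition, with the limit that 6 of the 8 arrays also carry the opposite fraction label. With DMSO, 24 of 31 sterol genes were lower in newly synthesized RNA and 0 were higher, beside 83.1% and 2.57% of all genes. With rapamycin 16 were lower and 0 higher, beside 71.5% and 1.1%. Without the second steady-state rapamycin array or either newly synthesized rapamycin array fewer genes passed as lower, both among the sterol genes and over all genes. Setting the S. cerevisiae medians equal turned the direction, to 2 lower and 18 higher with DMSO and 4 lower and 21 higher with rapamycin. Of all 4359 genes, 989 were then lower and 1637 higher with DMSO, and 799 lower and 1509 higher with rapamycin. At an unadjusted p under 0.05 in limma, 0 sterol genes were higher with DMSO and 1 with rapamycin. The sterol median was -1.01 against -1.27 over all genes with DMSO, and -0.50 against -0.83 with rapamycin. UPC2 had the lowest value under both conditions, -2.40 and -1.74 (SE 0.25 each), and ERG2 with DMSO (0.25, SE 0.21) and ERG27 with rapamycin (0.46, SE 0.21) had the highest, neither of which passed. Among the steps, the mevalonate genes lay 0.67 and 0.51 above the median of all genes, and the regulators 0.58 and 0.87 below it.

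Sterol genes of the S. pombe cells, for which the protocol names no rapamycin, measured the background on the same arrays. Of 25 matched probe sets 24 were tested. In newly synthesized RNA 0 were lower and 0 higher, beside 0.0% and 0.0% of the 1397 S. pombe probe sets, of which 45 had an unadjusted p under 0.05 in limma and 0 of the sterol ones did. Their changes ran from -0.35 to 0.10 with a median of -0.05. In steady-state RNA 4 were lower and 10 higher, beside 21.9% and 32.3% of all S. pombe probe sets, and the changes ran from -1.37 (SE 0.16) for scp1, the partner of the sterol-responsive factor Sre1, to 1.87 (SE 0.21) for erg10. The S. pombe genes erg28 (1.49, SE 0.17) and idi1 (1.27, SE 0.20) were also higher, and are1 (-0.55, SE 0.14) and sre1 (-0.54, SE 0.15) lower. The median of the S. pombe sterol changes in steady-state RNA was 0.14. The S. cerevisiae sterol median of -1.18 and 18 of the 31 member changes, ERG28 among them, lay inside the S. pombe range. The other 13 lay below it. The lower end of that range rests on scp1 alone, and the next lowest S. pombe sterol change was that of are1 (-0.55). The part of the S. pombe spread in the members' values was not tested.

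**Figure D4:**
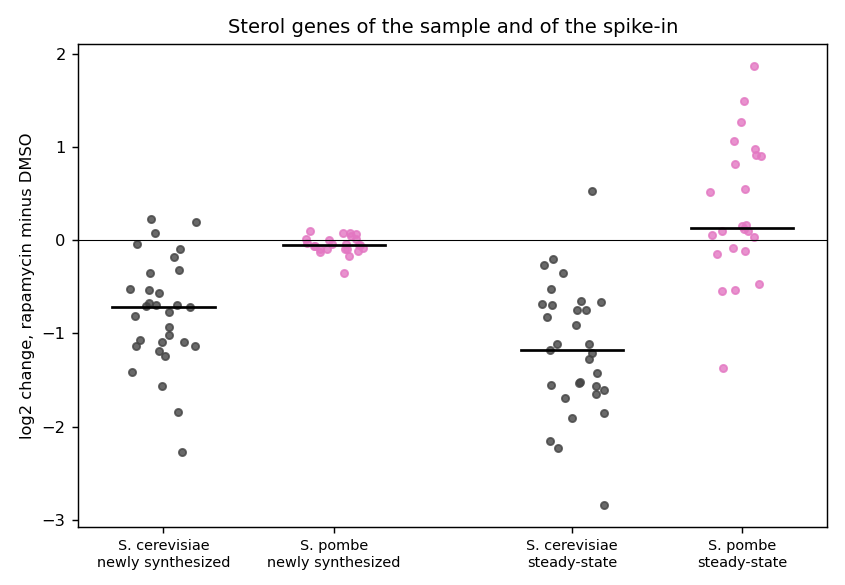
Log2 change, rapamycin minus DMSO, of the 31 S. cerevisiae sterol genes (dark) and the 24 S. pombe sterol probe sets (pink) in each fraction; points are genes, bars are medians. The S. pombe points lie between -0.35 and 0.10 in newly synthesized RNA and spread from -1.37 to 1.87 in steady-state RNA.

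Genes next to the pathway were read from 7 further lists with 63 genes on the array, 57 of them tested. In newly synthesized RNA 46 of 57 (80.7%) fell and 0 rose, near the 79.4% of all genes that fell, with a median of -0.88. In steady-state RNA 51 (89.5%) fell and 0 rose, near the 86.8% of all genes, with a median of -1.30. All 8 haem synthesis genes, whose product the P450 enzymes need, fell in both fractions, from -1.30 for HEM12 to -0.80 for HEM13 in newly synthesized RNA. Of 20 sterol transport genes 15 fell in newly synthesized and 16 in steady-state RNA, with ARV1, an endoplasmic reticulum sterol and lipid transport protein, lowest (-1.55) and PDR16, a phosphatidylinositol transfer protein, highest (0.39, which did not pass).

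The remaining lists were smaller, and their counts are in the same order, with gene values from newly synthesized RNA, and each is to be read against the 79.4% and 86.8% of all genes that fell. Of 7 genes of ester hydrolysis, acetylation and triglyceride synthesis 6 and 7 fell, from SAY1, the sterol deacetylase (-1.42), to the steryl ester hydrolase YEH1 (-0.16, which did not pass). Of 9 genes of endoplasmic reticulum degradation and Insig-like partners 7 and 9 fell, with DER1 at -1.38 and NSG2 at -0.32, which did not pass. All 5 genes of other farnesyl diphosphate uses fell in both fractions, from the farnesyltransferase subunit RAM1 (-1.34) to RAM2 (-0.86). Of 6 oxygen, haem and lipid regulators 4 and 5 fell, with the membrane-bound factor SPT23 lowest (-1.10) and the hypoxic repressor ROX1 highest (0.10, which did not pass). Of the P450 partners CBR1 fell in newly synthesized RNA (-0.48) and DAP1 did not pass (-0.38), and 1 of the 2 fell in steady-state RNA.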

How the data were processed

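RNA of 16 samples in 8 groups was measured on Affymetrix Yeast Genome 2.0 arrays. The deposited values are intensity on a linear scale, made with Affymetrix Expression Console 1.4.1 per the submitters' processing notes. How probes were summarised, and whether the authors scaled to the spike-in, is not given in the sources used here. The 8 Taf4-labelled columns were used, since 6 of 8 Taf5-labelled ones repeat them. Signals were put on the log2 scale, and the medians of the S. pombe probe sets were made equal. Of 5449 S. cerevisiae genes the dimmest 20% by mean were left out. A group-means model was fitted in limma 3.58.1 (R 4.3.3), with an adjusted p (Benjamini-Hochberg over all genes of a contrast) under 0.05 as the threshold. The fit was tested on simulated data. The members and lists were chosen with earlier results of these data known. Values on every array are given for the 4 largest and 4 smallest changes in each rapamycin contrast, the paralog pairs and SUT1, and of each further list the largest and smallest change. Alternatives were other scalings, filters, an intensity trend, a replicate block and leaving out each array. Promoter motifs were not analysed here.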

Additional observations from a re-analysis of the deposited data

How the results depend on the processing

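With the values as deposited, 14 sterol genes were lower and 3 higher in newly synthesized RNA (main 23 and 0), beside 2114 and 188 of all 4359 genes. The sterol median was -0.34. The steady-state median was then -0.65. With equal S. cerevisiae medians the counts were 5 lower and 8 higher in newly synthesized and 7 lower and 12 higher in steady-state RNA. Over all genes they were 389 and 679, and 787 and 1393. The sterol medians turned to 0.10 and 0.09. The loess curve gave a steady-state median of -1.67 and 0 higher. The interaction passed for 1 lower and 1 higher gene as deposited, 1 lower with equal medians, 18 higher with loess and 2 higher with an intensity trend. Over all genes these counts were 22, 88, 61, 2120 and 193. Newly synthesized against steady-state RNA with DMSO gave 2 higher as deposited, and 2 lower and 18 higher with equal medians. Over all genes these counts were 363, 989 and 1637. With rapamycin the contrast gave 9 lower and 3 higher as deposited, 4 lower and 21 higher with equal medians, and 1 higher with the 40% filter or the trend. Over all genes these were 2630, 262, 799 and 1509, and 49 with the filter and 63 with the trend.

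Relative to all genes in steady-state RNA, loess gave 0.20 for squalene to lanosterol, -0.04 for lanosterol to ergosterol, -0.34 for the electron donors, -0.27 for the regulators and -0.18 for the acyltransferases. The 40% filter gave 0.41 for squalene to lanosterol, -0.01 for the electron donors and -0.46 for the regulators, and left 26 of 31 genes and no acyltransferase. Loess gave 0.32 for lanosterol to ergosterol in newly synthesized RNA. The cause of these shifts was not tested.

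In newly synthesized RNA the sign turned with equal medians for ERG10 (0.01), ERG13 (0.11), ERG20 (0.51), ERG9 (0.79), ERG1 (0.12), ERG11 (0.26), ERG25 (0.74), ERG27 (0.16), ERG28 (0.64), ERG29 (0.13), ERG6 (0.29), ERG2 (0.31), ERG5 (0.47), NCP1 (0.10) and CYB5 (0.05). As deposited it turned for ERG20 (0.06), ERG9 (0.34), ERG25 (0.29), ERG28 (0.20) and ERG5 (0.03), and with loess for ERG25 (0.01). Without 1 array it ran from -0.11 to 0.03 for ERG9 (turned without the second DMSO array) and from -0.06 to 0.21 for ARE2 (turned without that array or the first rapamycin array, -0.02).

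In steady-state RNA the sign turned with equal medians for ERG10 (0.16), ERG13 (0.35), MVD1 (0.16), ERG20 (0.52), ERG9 (0.61), ERG1 (0.57), ERG11 (0.09), ERG25 (0.62), ERG29 (0.06), ERG6 (0.59), ERG2 (0.92), ERG3 (1.00), ERG5 (0.75), ERG4 (1.06), CYB5 (0.45) and ARE2 (0.52). As deposited it turned for ERG2 (0.18), ERG3 (0.26), ERG5 (0.01) and ERG4 (0.32), and with loess for ERG28 (-0.27). Loess also turned the interaction of ERG28 (0.13) and the DMSO fraction difference of ERG2 (-1.28).

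Leaving out 1 array at a time left 1 array in its group. The counts of genes that passed moved with the array left out, both among the sterol genes and over all genes. Sterol medians ran from -0.84 to -0.66 in newly synthesized RNA, beside -0.85 to -0.70 over all genes. In steady-state RNA they ran from -1.34 to -1.07, beside -1.35 to -1.01 over all genes. Relative to all genes, newly synthesized medians ran from 0.19 to 0.30 for lanosterol to ergosterol and -1.07 to -0.60 for regulators. Steady-state ones ran from -0.21 to 0.04 for mevalonate, 0.43 to 0.52 for squalene to lanosterol, 0.40 to 0.61 for lanosterol to ergosterol and 0.01 to 0.10 for electron donors.

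Same-numbered replicates deviated together only weakly (Pearson's r across genes -0.019 to 0.175), so the numbers are not taken to pair the samples. The replicate block gave 1 lower and 7 higher in the interaction and 1 higher in the fraction contrast with rapamycin, beside 38, 1004 and 79 of all genes. The promoter motif search and its shorter window were not run. Precision is limited by having 2 arrays a group.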

Other observations

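The 2 Taf5-labelled arrays that repeat no Taf4-labelled one were compared by value only, since each group then holds 1 array. On the steady-state DMSO array the sterol median was 10.55 and the median of all genes 8.86, and on the newly synthesized rapamycin array they were 9.86 and 8.18. The sterol median thus lay 1.69 and 1.68 above that of all genes, against 0.40 to 0.92 on the 8 Taf4-labelled arrays. On the first array 15 of 31 sterol genes were above the range of the Taf4-labelled arrays and 0 below it, where 5.37% of all genes were above and 3.28% below. On the second 3 were above and 2 below, beside 0.642% and 31.3% of all genes. ERG13 read 11.87 and 11.02 on these arrays, above its Taf4-labelled range of 9.52 to 10.57, and CYB5 read 10.90 on the first, above its highest of 10.47. The regulators UPC2 (7.29 and 7.20), ECM22 (7.82 and 7.25) and SUT1 (8.36 and 7.87) lay inside their ranges.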
